A study of Mus musculus with 7 samples.

Results

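Cerebral cortex and skeletal muscle are the excitable tissues among 7 mouse tissues profiled by total RNA sequencing, and their transcriptomes are set against each other here. The table was split into single gene names, and 50226 names were kept, each read from its locus with the highest FPKM (fragments per kilobase of transcript, scaled to library depth). Of these, 15611 names reached 1 FPKM in cortex or muscle and make up the comparison. A further set of 137 names was at least 4-fold above each of liver, kidney, visceral adipose tissue (VAT), subcutaneous adipose tissue (SCAT) and brown adipose tissue (BAT) in both cortex and muscle, and these are called shared genes. Fold differences were computed on FPKM + 0.1, which understates the difference of genes with low values. Where a pair of FPKM values is given without tissue names, cortex comes first, and a signed value after it is the log2 ratio of cortex over muscle. A gene was called cortex-high or muscle-high when it was at least 4-fold higher in that tissue and reached 1 FPKM there.

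All 7 libraries came from wild-type C57BL/6 mice aged 36 weeks with the diet label NCD, and the study describes them as lean C57BL/6N animals. Each tissue is represented by 1 library, and how many animals contributed to it is not given in the sources used here. No replicate exists, so no difference below could be set against a spread between animals, and every value is a description of these libraries without a test. Fewer cells of a type and less RNA per cell cannot be told apart in bulk tissue. Read depth was not given with the FPKM values, so no counting interval could be computed.

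Neurons and muscle fibres both carry action potentials made by voltage-gated sodium and potassium channels, and both use calcium as the signal that follows. In a neuron, calcium enters at the nerve terminal and drives fusion of synaptic vesicles through SNARE proteins. In a muscle fibre, a voltage sensor in the surface membrane opens ryanodine receptors of the sarcoplasmic reticulum, and the released calcium binds troponin on the thin filament and starts contraction. Many of the proteins involved come from gene families with one member typical of brain and another typical of muscle, and the same is true of glycolytic and mitochondrial enzymes.

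The labelled tissues were checked with Snap25 and Ckm. Snap25 (chr2:136713453-136782428, plus strand, GENCODE annotation on GRCm38) encodes the SNARE protein of the nerve terminal and had 215 FPKM in cortex and 0.0680 FPKM in skeletal muscle, with values from 0 to 0.0907 in the other 5 tissues. Ckm (chr7:19404776-19422841, plus strand) encodes the creatine kinase of muscle cytosol and had 8592 FPKM in skeletal muscle and 0.0727 FPKM in cortex. Outside these tissues Ckm was highest in BAT at 166 FPKM, followed by VAT at 9.86 and SCAT at 1.70, and its liver value was missing. The ratios of cortex over muscle on the log2 scale were 10.33 for Snap25 and -15.60 for Ckm, so each marker followed its label.

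Other cell types were visible in each library. The 7 neuron markers with a value summed to 834 FPKM in cortex and 2.63 FPKM in muscle, where Syt1 and Rbfox3 were listed at 0. The 9 fast fibre markers with a locus summed to 40582 FPKM in muscle, with Myh4 missing, and to 4.76 FPKM in cortex. In BAT they summed to 997 FPKM, and this BAT library is one of the 5 against which the shared rule sets cortex and muscle. The 7 slow fibre markers had 931 FPKM in muscle, 214 in BAT and 9.86 in cortex. Markers of astrocytes (375 FPKM), oligodendrocytes (331) and microglia (102) were all measured in cortex, against 19.3, 6.17 and 36.8 FPKM in muscle. Of the 6 microglia markers, 1 was cortex-high and 5 were neither, and the list summed to 121 FPKM in kidney and 120 in VAT. The astrocyte list reached 189 FPKM in liver and 114 in kidney. Of 5 choroid plexus markers, the transthyretin gene Ttr had 195 FPKM of the list's 200 in cortex, and 3530 FPKM in liver. Folr1 and Otx2 of this list were also cortex-high at low values, Kcnj13 was neither, and Aqp1 had 0.144 FPKM in cortex and 28.5 in muscle (opposite-strand locus). Muscle held more fibroblast (430 against 19.9 FPKM), endothelial (37.8 against 3.71), erythroid (840 against 160), adipocyte (62.6 against 1.85) and satellite cell (7.25 against 3.50) marker RNA than cortex in FPKM as deposited. With both libraries scaled to equal summed FPKM, the satellite cell sum, whose difference is under the shift of 1.36 on the log2 scale, turns toward cortex, where Vcam1 holds 3.41 of its 3.50 deposited FPKM and Pax7 and Myf5 are listed at 0, while 2 of the 3 satellite cell genes compared stay muscle-high. The muscle-high erythroid markers then go from 4 of 5 to 0, and the endothelial ones from 4 of 4 to 2. Schwann cell markers summed to 19.7 FPKM in muscle and 15.9 in cortex, where 13.9 came from S100b, a gene also expressed by astrocytes. This difference is also under the shift of 1.36, so with equal sums the Schwann cell sum turns toward cortex too. The muscle-high Schwann cell genes then go from 3 of 4 to 2. Hepatocyte markers other than Ttr were low in both, and Alb had 5.67 FPKM in muscle and 1.81 in cortex. The part of these cells in the differences below was not tested.

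Of the 15611 genes, 2677 (17.1%) were cortex-high and 2933 (18.8%) were muscle-high, while 10001 (64.1%) were neither and 6096 (39.0%) lay within 2-fold. The median log2 ratio was -0.43, with quartiles at -1.57 and 0.97. Cortex had more genes beyond 6 on the log2 scale, 473 against 302 in muscle, but muscle had 57 genes beyond 10 and cortex had 10 such genes. This balance of directions rests on the scaling of the libraries. A median-ratio rescaling gave 3018 cortex-high and 2382 muscle-high genes, so that cortex took 55.9% of the calls instead of 47.7%. Scaling both libraries to the same summed FPKM gave 5674 and 1321, with 81.1% of calls in cortex, and moved the median ratio to 1.10. The summed FPKM over named loci was 215627 in cortex and 551965 in muscle, where the small nuclear RNA gene Rn7sk, missing in cortex, made up 9.24%. This second rescaling moves abundant genes by 1.36 on the log2 scale toward cortex, and ratios between -1.36 and 0 then change sign. For 2842 of the 15611 values the locus lay opposite to the gene's annotated strand, nearly all for names with more than 1 locus. Whether such a value comes from RNA of the named gene or from antisense RNA cannot be told apart in these data. Most named genes of this kind are pointed out, as are most loci that hold several names.

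**Figure D1:**
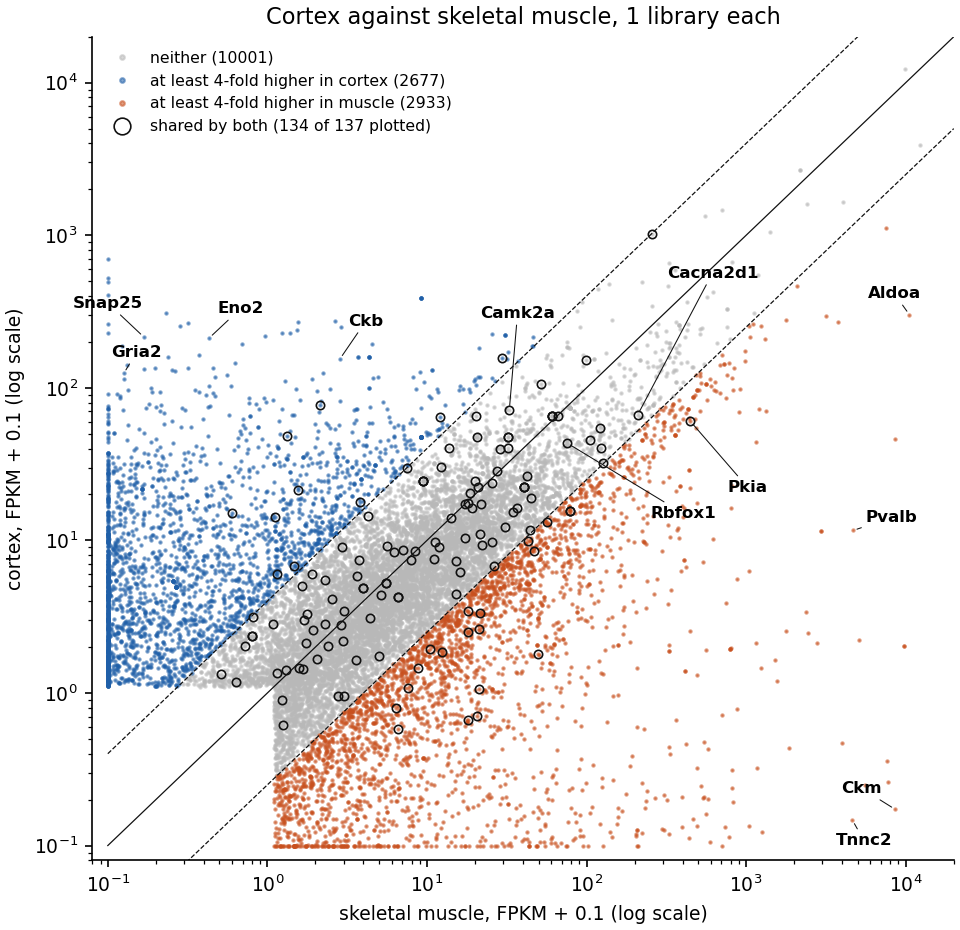
Each point is 1 of the 15611 genes, with its skeletal muscle FPKM + 0.1 on the horizontal axis and its cortex FPKM + 0.1 on the vertical axis, both on a log scale, 1 library per tissue. Dashed lines mark 4-fold differences, blue points are the 2677 cortex-high genes, orange points the 2933 muscle-high genes, and open circles 134 of the 137 shared genes, of which 10 are cortex-high and 20 are muscle-high.

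The most abundant coding genes with a value took a smaller share of the summed coding FPKM in cortex than in any of the other 6 libraries. The 10 most abundant protein-coding genes made up 18.9% of the coding FPKM in muscle and 3.56% in cortex, and the top 100 made up 41.6% and 16.4%. In the other 5 tissues the top 10 made up 11.0% (VAT) to 18.4% (liver) and the top 100 made up 31.5% (VAT) to 43.2% (liver). These shares leave out missing values, which fall unevenly among the tissues. The mitochondrial gene mt-Co1 was missing in every library, and mt-Co3 and mt-Atp6 in cortex, muscle, kidney and BAT. Ttn and Myh4 were missing in muscle and Alb in liver, and Acta1 was not analysed. The glycolytic enzyme gene Aldoa led muscle with 10537 FPKM against 302 in cortex. In cortex the most abundant coding genes included Hspa8, a constitutive chaperone gene, with 668 FPKM against 818 in muscle.

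Ckm had the most muscle-biased ratio. After it, the thin filament calcium sensor gene Tnnc2 had 4630 FPKM in muscle and 0.0469 in cortex (log2 ratio -14.94), and its inhibitory partner Tnni2 had 7697 in muscle and 0.162 in cortex (-14.84). The fast light chain genes Mylpf (0.150 and 5595 FPKM, -14.45) and Myl1 (0.260 and 7609 FPKM, -14.37) came next. They were followed by Mybpc2, a thick filament binding protein gene (-13.31), Atp2a1, the calcium pump of the fast sarcoplasmic reticulum (-13.05), and Myoz1, a Z-disc protein gene (-12.93). Csrp3 had 701 FPKM in muscle and was listed at 0 in cortex. AC122507.1, a name without a GENCODE gene, had 0.0132 and 784 FPKM (-12.76). Each of the 10 was highest in muscle among the tissues with a value.

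The most cortex-biased entries began with small RNA genes. Gm26202, Gm22363 and Gm22860 and the mitochondrial tRNA genes mt-Tv and mt-Tm had 262 to 697 FPKM in cortex and were listed at 0 in muscle. For genes this short an FPKM value rests on few possible fragment positions. Among protein-coding genes, Nap1l5, an imprinted gene of the nucleosome assembly protein family, had 229 FPKM in cortex and was listed at 0 in muscle. The neuronal calcium sensor genes Hpcal4 (189 and 0.0234 FPKM, 10.58) and Vsnl1 (141 and 0.0320 FPKM, 10.06) stood beside Ptgds, the prostaglandin D synthase gene (307 and 0.130 FPKM, 10.38). Ptgds reached 103 FPKM in VAT, so it was not confined to cortex, and the values of Gm22363, Nap1l5, Hpcal4 and Vsnl1 come from opposite-strand loci.

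The genes were then grouped into 20 lists by role, and each list is given by its calls, to be read beside the 17.1% cortex-high and 18.8% muscle-high over all genes compared, and by its median log2 ratio, to be read beside -0.43. The lists ranged from sarcomere filaments, at -10.97, to postsynaptic scaffolds and receptors, at 7.17.

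**Figure D2:**
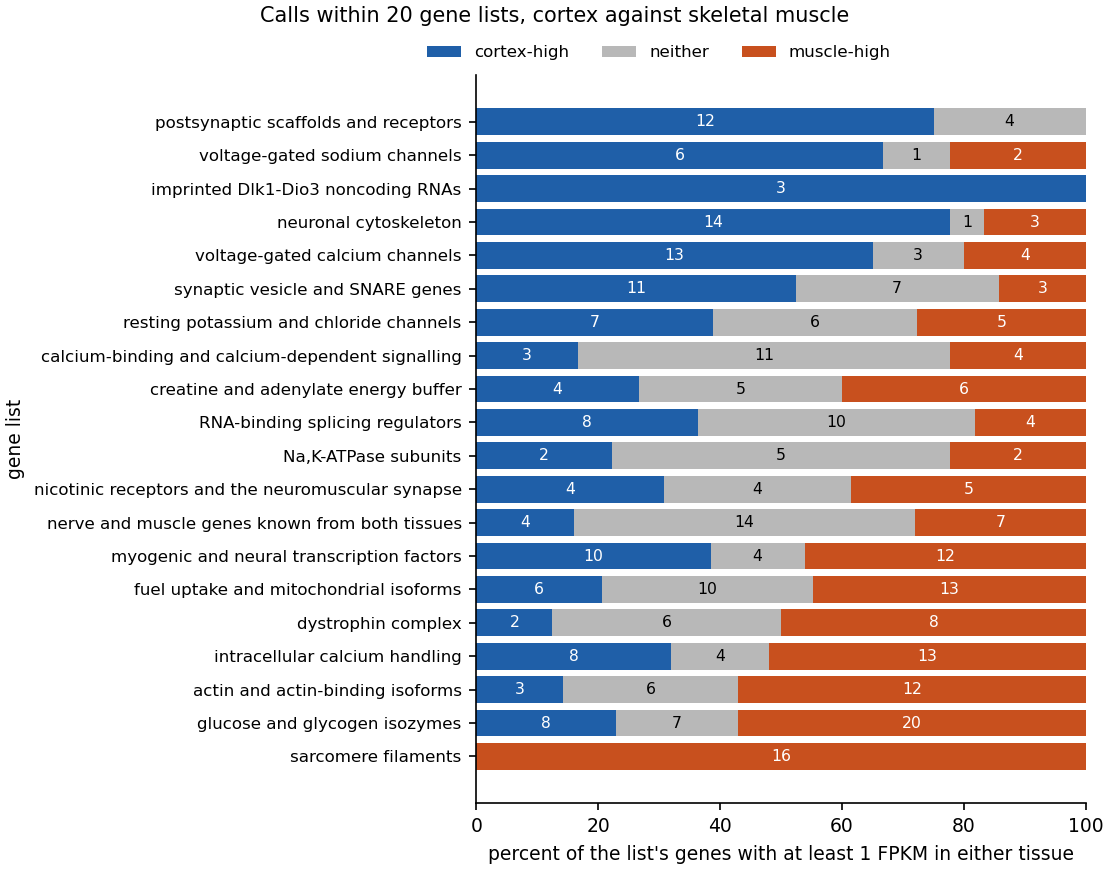
For each of 20 gene lists, the bar gives the percent of its genes with at least 1 FPKM in either tissue that were cortex-high (blue), neither (grey) or muscle-high (orange), with the number of genes printed in each part, ordered by median log2 ratio. All 16 sarcomere genes compared were muscle-high and 12 of 16 postsynaptic genes were cortex-high, whereas most lists between them held calls in both directions.

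Among contractile and structural genes, all 16 sarcomere genes with a value in both tissues were muscle-high. Neb, the ruler protein of the thin filament, had 1861 FPKM in muscle and 0.337 in cortex (-12.06), Des, the muscle intermediate filament gene, had 0.137 and 817 FPKM (-11.75), and Myot, a Z-disc gene, had 0.00520 and 596 (-12.47). The titin gene Ttn, missing in muscle, was not compared. Neuronal cytoskeleton genes went the other way, with 14 of 18 cortex-high and a median of 4.45. Nefl, the light neurofilament gene, had 254 and 0.183 FPKM (9.81, opposite-strand locus), and the dendritic microtubule protein gene Map2 had 228 and 1.28 (7.37). The 3 tubulin genes Tuba4a (50.1 and 233 FPKM, -2.21), Tuba8 (0.927 and 47.6, -5.54) and Tubb6 (2.14 and 9.01, -2.02) were muscle-high, but Tuba4a, whose locus also holds another gene name, and Tubb6 lost this call after either rescaling.

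Actin-binding genes held isoform pairs of opposite bias. Tpm1, the tropomyosin of the fast thin filament, had 8575 FPKM in muscle and 46.1 in cortex (-7.54), and Actn3, the fast fibre alpha-actinin, had 2.03 and 2776 FPKM (-10.35). Cytoplasmic actin was abundant in both, with Actb at 588 FPKM in cortex and 356 in muscle, from an opposite-strand locus. Cofilin 1, an actin-severing protein, had 98.6 FPKM in cortex and 11.4 in muscle (Cfl1, 3.11), and its muscle counterpart Cfl2 had 8.85 and 162 (-4.18). The neuronal tropomodulin gene Tmod2 had 61.2 and 3.48 FPKM (4.10, opposite-strand locus), and Tmod4, its skeletal muscle paralog, had 1.30 and 414 (-8.21), from a locus that also holds another gene name. In all, 12 of 21 genes of the list were muscle-high and 3 were cortex-high, and equal sums gave 10 and 6.

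The dystrophin complex links the cytoskeleton to the extracellular matrix in muscle and occurs in brain with other subunits. Dmd itself was neither, with 29.6 FPKM in cortex and 82.9 in muscle (-1.48), and so was utrophin, with 5.69 and 7.63 (Utrn, -0.42). The sarcoglycan gene Sgca (0.0691 and 166 FPKM, -9.94) was muscle-high. In cortex, gamma 1 syntrophin (Sntg1, 14.7 and 0.0681 FPKM, 6.46) and beta dystrobrevin (Dtnb, 20.8 and 2.05, 3.28) stood out. The list held 8 muscle-high, 2 cortex-high and 6 uncalled genes, and with equal sums 5 muscle-high and 3 cortex-high of 17, with its median at -0.49 in place of -2.17. Its alpha dystrobrevin (Dtna, 18.8 and 44.8 FPKM) and neuronal nitric oxide synthase (Nos1, 2.4 and 18 FPKM) were shared genes.

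Ion channels of the surface membrane divided by subunit. Among sodium channels, 6 of 9 genes compared were cortex-high and 2 were muscle-high, with a median of 5.27. Scn2a, the pore of excitatory neurons, had 40.8 FPKM in cortex and 0.775 in muscle (5.55), and Scn4a, the pore of skeletal muscle, had 0.00435 and 33.0 (-8.31). The muscle pore accounted for 95.9% of the summed FPKM of 7 pore genes in muscle and 0.00663% in cortex. Among auxiliary subunits, Scn2b (50.6 and 0.678 FPKM, 6.02) was cortex-high and Scn4b (2.92 and 98.2, -5.03) was muscle-high, both from opposite-strand loci.

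Voltage-gated calcium channels repeated this pattern, with 13 cortex-high and 4 muscle-high genes of 20. The R-type pore gene Cacna1e had 17.3 FPKM in cortex and 0.147 in muscle (6.14), and 6 of the 9 pore genes compared were cortex-high. Cacna1s, the voltage sensor of muscle contraction, had 0.0954 and 237 FPKM (-10.24) and made up 98.0% of the pore FPKM in muscle. Its partner Cacng1 had 94.4 FPKM in muscle and was listed at 0 in cortex. The beta and alpha2delta subunits of the same muscle complex were less separated, since Cacnb1 (13.1 and 56.2 FPKM, -2.10) and Cacna2d1 (66.2 and 209, -1.66, opposite-strand locus) were shared genes, and Cacnb1 lost its muscle-high call after either rescaling.

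Potassium and chloride channels had 7 cortex-high and 5 muscle-high genes of 18, with a median of 0.82, and equal sums gave 10 and 5, with a median of 2.16. The inward rectifier gene Kcnj2 had 3.97 FPKM in cortex and 54.1 in muscle (-3.73, opposite-strand locus). Clcn1, the chloride channel that stabilises the muscle membrane, had 11.7 FPKM in cortex and 44.4 in muscle (-1.92), while the widely expressed Clcn2 had 40.4 and 12.8 (1.65). Of the sodium pump subunits, 5 of 9 were neither. The beta 1 subunit gene Atp1b1 (214 and 46.2 FPKM, 2.21) was cortex-high, and the regulator phospholemman (Fxyd1, 21.8 and 448, -4.35) was muscle-high.

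Calcium release and storage genes were muscle-high in 13 of 25 cases and cortex-high in 8. The ryanodine receptors separated, with Ryr1 at 230 FPKM in muscle and 0.480 in cortex (-8.63) and Ryr2 at 0.156 in muscle and 19.3 in cortex (6.25). Itpr1, the inositol trisphosphate receptor of neurons, had 42.3 FPKM in cortex and 3.90 in muscle (3.4). The reticulum pump Atp2a1 had 3995 FPKM in muscle, and the plasma membrane pump Atp2b2 had 19 in cortex and 0.0494 in muscle (7.0). The storage protein calsequestrin 1 (Casq1, 0.363 and 419 FPKM, -9.82) and triadin (Trdn, 0.211 and 817, -11.36), which couples it to the release channel, were among the muscle-high genes. Junctophilins, which hold the reticulum to the surface membrane, included the muscle-high Jph1 (4.95 and 161 FPKM), which made up 57.5% of the summed FPKM of Jph1, Jph2 and Jph4 in cortex and 75.9% in muscle, where the brain junctophilin Jph3 is left out because it was not analysed here. Jph2 had 0.0713 and 51.2 FPKM (-8.23), like Jph1 from an opposite-strand locus, and the cortex-high Jph4 had 3.59 FPKM in cortex and was listed at 0 in muscle.

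In calcium-dependent signalling 11 of 18 genes were neither, beside 64.1% of all genes compared, and 3 were cortex-high and 4 muscle-high. Equal sums gave 9 cortex-high and 2 muscle-high genes and a list median of 2.11 in place of 0.76. The calcium buffer Pvalb, a marker of fast fibres and of one interneuron class, had 4675 FPKM in muscle and 11.5 in cortex (-8.65). Calb1, another buffer, had 27.1 FPKM in cortex and was listed at 0 in muscle. The kinase genes Camk2a (71.9 and 32.7 FPKM, 1.13), Camk2b (105 and 51.8, 1.02, opposite-strand locus) and Camk2g (12.1 and 30.7, -1.34), the calcineurin gene Ppp3ca (152 and 98.5, 0.62) and its regulator Rcan2 (17.2 and 21.6, -0.32) were shared by both tissues. Camk2d had 35.2 and 36.3 FPKM (-0.05).

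Vesicle fusion genes were cortex-high in 11 of 21 cases, with a median of 2.39. The vesicle membrane protein gene Syp (158 and 3.61 FPKM, 5.42), whose locus also holds other gene names, and the calcium sensor Syt1 (51.5 FPKM in cortex, listed at 0 in muscle) were among them. The 3 muscle-high members were Vamp5 (0.505 and 32.1, -5.73), Snap23 (1.43 and 11.7, -2.95) and Stxbp3 (4.85 and 21.9, -2.15), which act in membrane fusion outside the nerve terminal. The count of muscle-high members was 2 with the median-ratio rescaling and 1 with equal sums, where Snap23 was at -1.65. The synapsin genes Syn1 (10.5 and 5.09) and Syn2 (50.8 and 24.3) were neither. Of the postsynaptic genes, the glutamate receptor gene Gria2 had 124 and 0.0259 FPKM (9.95). The 4 uncalled members were Shank3 and the scaffold genes Homer1, Homer2 and Homer3, and Homer1 had 39.9 FPKM in cortex and 28.5 in muscle.

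The list of the neuromuscular synapse and nicotinic receptors had 5 muscle-high and 4 cortex-high genes of 13. Musk, the receptor kinase that organises the synapse, had 38.6 FPKM in muscle and 0.438 in cortex (-6.17), and the receptor subunit gene Chrna1 had 0.0713 and 7.53 FPKM (-5.48), both from opposite-strand loci. The neuronal receptor subunit Chrna7 had 4.46 FPKM in cortex and 0.0384 in muscle (5.04, opposite-strand locus), and the beta 1 subunit Chrnb1 had 15.0 and 16.8 (-0.17). The list median of -0.17 became 0.14 with the median-ratio rescaling and 1.18 with equal sums. Acetylcholinesterase (Ache, 2.03 and 1.64 FPKM) and Dok7, an activator of Musk (0.853 and 2.92), met the shared rule at low values.

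Energy metabolism differed mainly by isozyme. Of 15 creatine and adenylate genes, 4 were cortex-high and 6 muscle-high, and equal sums gave 7 and 5. Creatine kinase of the cytosol was Ckb in cortex (155 and 2.75 FPKM, 5.76) and Ckm in muscle, and the mitochondrial forms were Ckmt1 in cortex (44.3 FPKM, listed at 0 in muscle) and Ckmt2 in muscle (0.0929 and 826, -12.06). Of 35 glucose and glycogen genes, 20 were muscle-high and 8 were cortex-high, with a median of -2.85, and equal sums gave 16 and 12, with a median of -1.49. Enolase was mostly Eno2 in cortex (212 and 0.332 FPKM, 8.94) and Eno3 in muscle (11.5 and 2937, -7.99, a locus that also holds another gene name), and these loci made up 64.7% and 98.6% of the enolase FPKM of their tissues. Aldolase C (Aldoc, 118 and 0.370, 7.97), an astrocyte marker, made up 28.1% of aldolase FPKM in cortex. Hexokinase was 98.9% Hk1 in cortex (18.2 and 2.11 FPKM, 3.05) and 94.1% Hk2 in muscle (0.200 and 33.9, -6.82). Glycogen phosphorylase was Pygb (22.7 and 2.80, 2.98) against Pygm (3.29 and 2387, -9.46), and the insulin-responsive glucose transporter gene Slc2a4 had 0.233 and 187 FPKM (-9.14).

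Mitochondrial and fuel genes followed, with 13 of 29 muscle-high and 6 cortex-high, and equal sums gave 13 and 8. Cytochrome c oxidase subunit 8 was Cox8b in muscle (2.11 and 5108 FPKM, -11.17, opposite-strand locus) and Cox8a in cortex (93.9 and 18.5, 2.33). BAT had 11478 FPKM of Cox8b, more than muscle. Oxygen-binding globins were myoglobin (Mb, 0.109 and 544, -11.35) and neuroglobin (Ngb, 3.75 and 0.0354, 4.83, opposite-strand locus). Cpt1b, the muscle form of the fatty acid entry enzyme of mitochondria, had 9.71 and 230 FPKM (-4.55), read from a locus with several names, and its paralog Cpt1c, known from neurons, had 12.6 and 0.690 (4.01). In cortex they made up 40.8% and 52.9% of the family's FPKM.

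Across 50 gene families defined from the lists, 28 had both a cortex-high and a muscle-high member. The count was 28 with the median-ratio rescaling, 32 with equal sums, 26 with a pseudocount of 1 FPKM and 28 on annotated-strand loci alone. They ranged from enzymes and oxygen carriers to channel pores, calcium release channels, SNAP proteins and cofilins. CaMKII, the AMPK subunits, the actins and the MEF2 and MBNL factors were among the 22 families without such a pair.

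**Figure D3:**
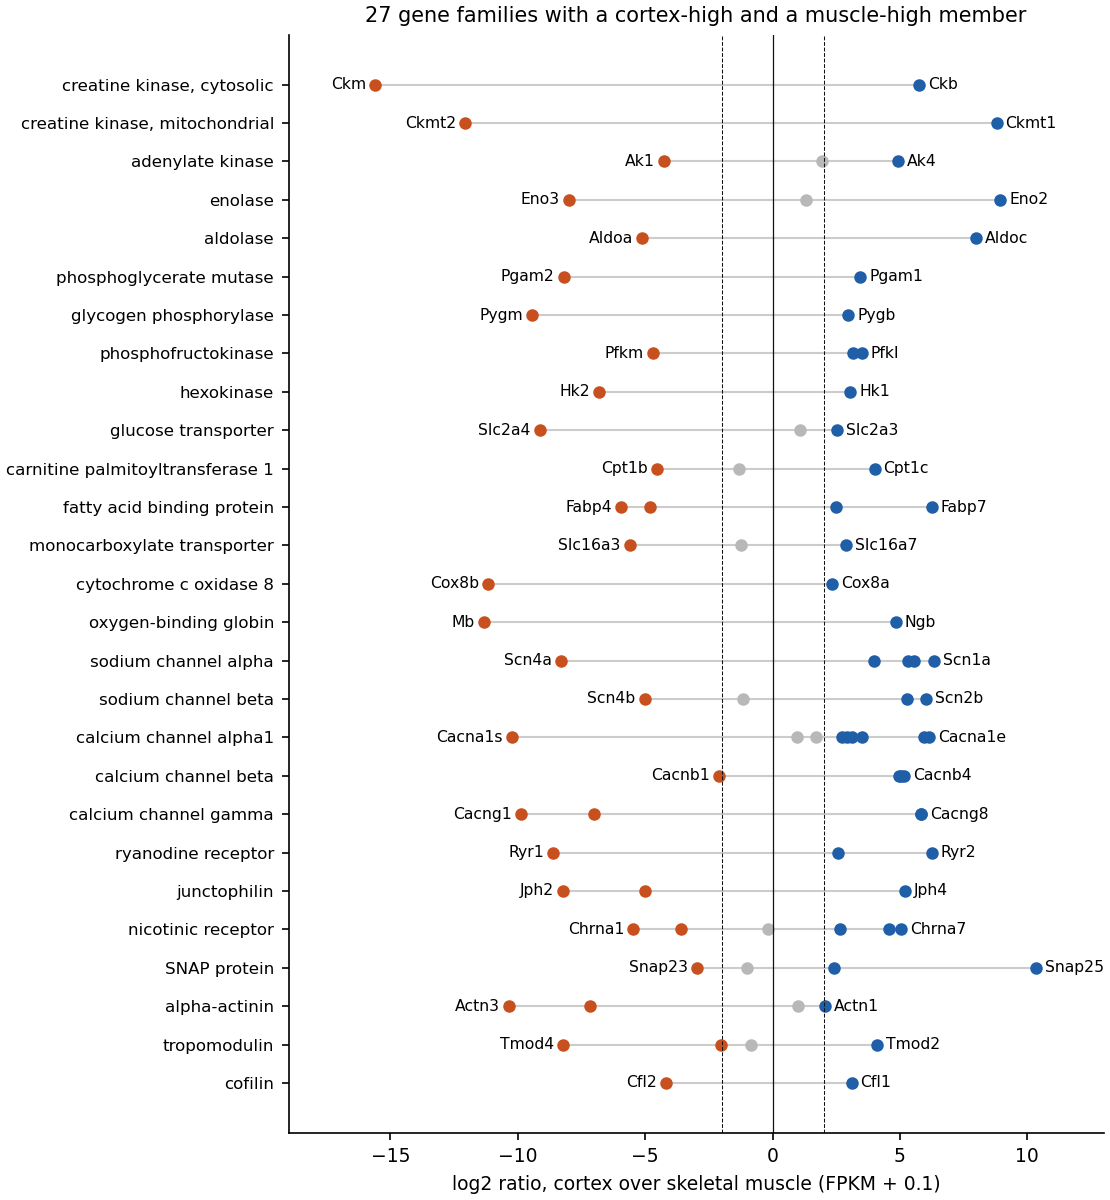
For each of 27 of the 28 families, points give the log2 ratio of cortex over skeletal muscle (FPKM + 0.1) of each member, with cortex-high members in blue, muscle-high members in orange, the others in grey, the outermost members named, and dashed lines at 4-fold. The cytosolic creatine kinases lie farthest apart, from Ckm at -15.60 to Ckb at 5.76.

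Regulators of splicing and transcription completed the lists. Of 22 splicing regulators compared, 8 were cortex-high, 4 were muscle-high and 10 were neither, and equal sums gave 11 cortex-high and 3 muscle-high of 23. Rbfox3, also known as NeuN, had 18.7 FPKM in cortex and was listed at 0 in muscle, and Celf4 had 20.9 and 0.0407 (7.22). In muscle, Mbnl1, which drives adult muscle splicing, had 246 FPKM against 24.3 (-3.33), and Rbm20, a titin splicing factor, had 19.2 against 0.0778 (-6.76). Rbfox1 was the shared member, with 43.4 FPKM in cortex and 75.4 in muscle (-0.80). Among transcription factors, 12 of 26 were muscle-high and 10 were cortex-high. Myf6, the myogenic factor of adult fibres, had 48.8 FPKM in muscle, and Neurod6, of cortical excitatory neurons, had 27.5 FPKM in cortex. Each was listed at 0 in the other tissue, and both were read from opposite-strand loci, that of Neurod6 holding another gene name. Mef2c, known from both tissues, had 84.3 and 212 FPKM (-1.33). The median of the list, -1.34, became 0.79 with equal sums.

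The 137 shared genes came from 126 loci and were 0.273% of the 50160 names with values in all tissues needed. Among 21 pairs of tissues, cortex and muscle came by this count after liver with kidney (287) and BAT with muscle (159), and SCAT with BAT had 1. Taken singly, 1591 names were at least 4-fold above the 6 other tissues in cortex and 693 in muscle. Of the shared genes, 116 reached 1 FPKM in both tissues and 49 reached 10 FPKM in both. Their levels ran from 0.480 to 1025 FPKM in cortex (median 8.46) and from 0.339 to 446 FPKM in muscle (median 11.0). Their median log2 ratio was -0.06, with 64 higher in cortex and 73 in muscle, and 63 lay within 2-fold. This balance also rests on the scaling, since the median-ratio rescaling gave the same 137 genes a median of 0.24, with 81 higher in cortex and 56 in muscle, and equal sums gave 1.27, with 106 and 31. The next tissue was VAT for 48, BAT for 45, kidney and SCAT for 14 each and liver for 9, while 7 were listed at 0 in all 5 others.

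By annotation, 109 of the 137 were protein-coding, 16 were noncoding and 12 had no GENCODE gene. The value came from the annotated strand for 86, from the opposite strand for 39, and the strand was unknown for 12. Of the names, 20 fell in 9 loci with several names, so that one value stood for more than one gene. Atcay, a brain gene mutated in a form of ataxia, and Nmrk2, a nicotinamide riboside kinase gene of muscle, lay beside each other on chromosome 10 and shared a locus with 15.6 FPKM in cortex and 78.4 in muscle. A locus that joins a gene known from brain to one known from muscle can meet the rule without either gene doing so, and which name carries the value cannot be told apart. With names of 1 locus and loci of 1 name only, 41 shared genes were left, and with annotated-strand loci only there were 110, of which 107 were in the set of 137.

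The shared genes with the largest margin over the other 5 tissues were led by a small nuclear RNA gene, Gm24596 (chr7:126563874-126563980, minus strand), with 10.9 FPKM in cortex and 21.5 in muscle and 0 elsewhere. Gm24596 spans 107 bp, and for a gene this short an FPKM value rests on few possible fragment positions. Camk2a was next, with 71.9 and 32.7 FPKM against at most 0.446 FPKM in BAT. The kinase is known from excitatory synapses, and the gene also encodes alphaKAP, a kinase anchoring protein of muscle. In the muscle library the other 6 glutamatergic neuron markers reached at most 2.58 FPKM (Nrgn), with Neurod6, Neurod2 and Tbr1 at 0. Rbfox1 (chr16:5885355-7411526, plus strand), a splicing regulator that spans 1526172 bp, followed, with BAT next at 1.03 FPKM. Acsl6, an acyl-CoA synthetase gene, had 29.6 and 7.37 FPKM, and Akap6, an anchor of protein kinase A at intracellular membranes of excitable cells, had 39.9 and 32.3, both from opposite-strand loci. The adenylyl cyclase gene Adcy2 had 16.2 and 19 FPKM with BAT next at 0.861, and Ttll7, a tubulin polyglutamylase gene, had 45.2 and 105 with BAT next at 2.78. Fam131a had 65.2 and 20.3 FPKM, Gdap1, a mitochondrial gene mutated in hereditary neuropathy, had 14.5 and 4.15, and Tceal5 had 9.01 and 2.84. The Schip1 locus, which also holds Iqcj and Gm21949, had 64.9 and 60.7 FPKM, and the Soga3 locus, with 9330159F19Rik and AC153912.1, had 24.6 and 9.30. Less characterised names were 3300002P13Rik (5.75 and 3.56 FPKM), AC132325.2 (5.44 and 2.19) and Fam159b (4.94 and 1.56).

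**Figure D4:**
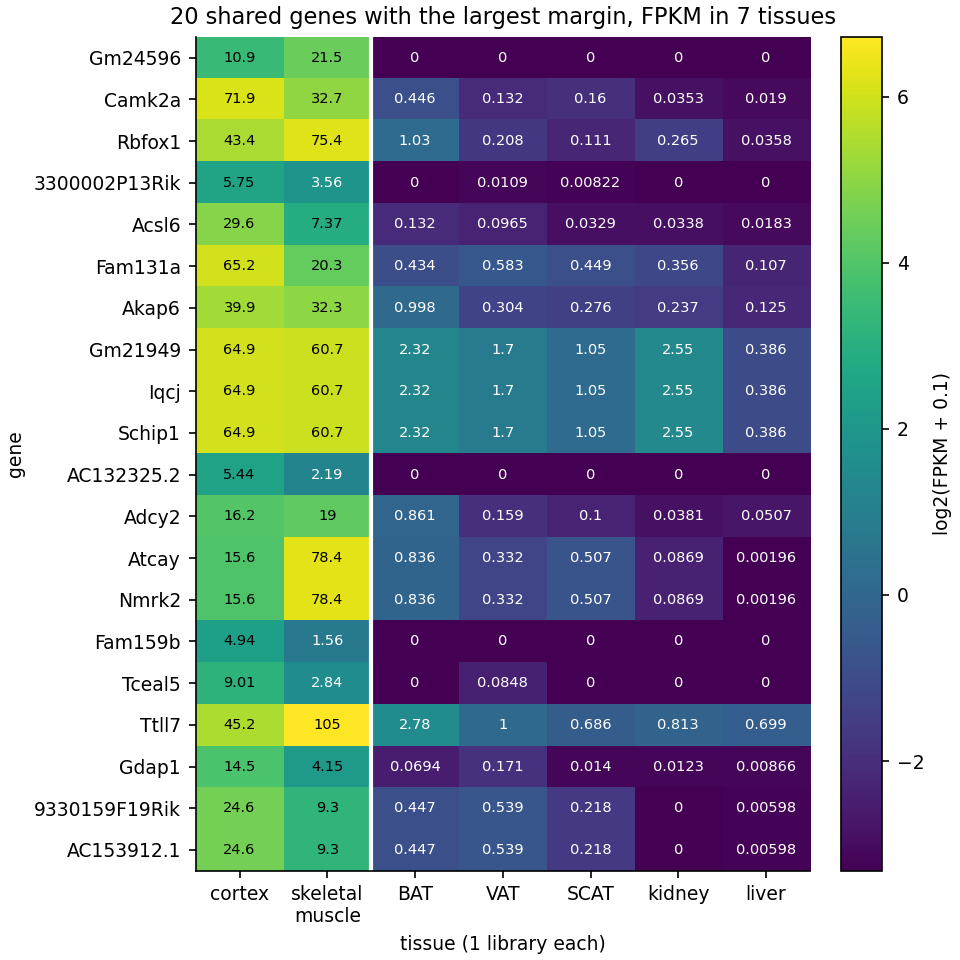
Rows are the 20 shared genes with the largest margin, columns the 7 tissues (1 library each), colour gives log2(FPKM + 0.1) and the printed number the FPKM. The cortex and skeletal muscle columns run from 1.56 to 105 FPKM, whereas the other 5 tissues reach at most 2.78 FPKM (Ttll7 in BAT), and rows with the same numbers share a locus.

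Ranked by summed FPKM, the noncoding gene Gm26723 was first with 1025 FPKM in cortex and 257 in muscle, although BAT had 51.3. Pkia (60.4 and 446 FPKM, opposite-strand locus), an inhibitor of protein kinase A, Cacna2d1 and Ppp3ca followed. Cpe, a processing enzyme of neuropeptides, had 156 and 29.4 FPKM (2.4). The microtubule protein gene Map4 (40.5 and 123), the actin regulator gene Cap2 (32.0 and 127), Camk2b and Ttll7 were also among the first 10. With annotated-strand loci only, Pkia and Camk2b did not meet the rule, and neither did Camk2b with its loci summed.

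Within the set, 10 genes were still cortex-high and 20 muscle-high. Chosen after their values were seen, Arpp21, a cAMP-regulated phosphoprotein gene, had 77.6 and 2.04 FPKM (5.18) and Stmn4, a stathmin gene, had 48.1 and 1.23 (5.17), while Tceal7 had 1.71 and 49.2 (-4.77, opposite-strand locus) and Igfn1, a Z-disc protein gene, had 0.561 and 17.9 (-4.77). Also chosen after their values were seen, Pfn2, the neuronal profilin gene, had 65.6 and 65.9 FPKM, Kif3c, a kinesin gene, had 17.3 and 17.2, and Fxyd6, a sodium pump regulator gene read from an opposite-strand locus, had 22.2 and 20.9. Among 72 potassium channel genes compared, 5 were shared, namely Kcnma1, Kcnc1, Kcnq5, Kcnn3 and Kcnf1. Kcnc1, Kcnn3 and Kcnf1 were read from opposite-strand loci, and Kcnn3 and Kcnf1 did not meet the rule with annotated-strand loci only. Kcnma1, the large-conductance calcium-activated channel, had 24.4 and 19.8 FPKM, with VAT next at 1.43. Of the 359 listed genes compared, 21 (5.85%) were shared, against 0.858% of all genes compared. The lists were chosen with earlier results of these data known. In the list of genes known from both tissues, 9 of 25 met the rule, 4 were cortex-high and 7 muscle-high, and equal sums gave 8 and 5 and moved its median from -0.80 to 0.56. Lmod1, the leiomodin gene typical of smooth muscle, was also shared, with 4.38 and 15.1 FPKM, but did not meet the rule with its loci summed.

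At the edge of the rule, the locus of AC153962.1 and AC153962.3 (5.17 FPKM in cortex, 5.43 in muscle, 1.22 in BAT) and Gm26752 (0.702, 6.26 and 0.10) were just inside. The genes just outside were 1700025G04Rik (10.9 and 27.3 FPKM, 2.66 in SCAT), Pcp4l1 (12.1 and 15.6, 2.97 in liver, opposite-strand locus) and Arhgef17 (10.7 and 8.88, 2.17 in kidney).

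Noncoding RNAs with known tissue roles were also divided. The imprinted Dlk1-Dio3 transcripts Meg3 (159 and 4.25 FPKM, 5.19), Rian (389 and 9.11, 5.40) and Mirg (4.82 and 0.167, 4.21) were all cortex-high, each from a locus with several names. H19, an imprinted RNA chosen after its values were seen, had 207 FPKM in muscle, from an opposite-strand locus, and was listed at 0 in cortex. Of 133 microRNA gene names compared, from 117 loci, 57 names (42.9%) at 47 loci were cortex-high and 13 names (9.77%) at 13 loci were muscle-high, beside 17.1% and 18.8% of all genes compared. This tilt was not particular to microRNA genes. Of 69 genes annotated as misc_RNA, 43.5% were cortex-high and 15.9% muscle-high, and of 98 small nuclear RNA genes 29.6% and 13.3%. Small nucleolar RNA genes (90) leaned less, with 20% and 14.4%. These libraries do not capture mature microRNAs, and a microRNA gene's value comes from long RNA at its locus. The microRNA genes below were chosen after their values were seen. Mir1a-1 and Mir133a-2, of the muscle microRNAs, had 42.0 and 59.5 FPKM in muscle and 0.00976 and 0.00372 in cortex (-8.58 and -9.17), both from opposite-strand loci. Mir124a-1 and Mir124a-2, of the neuronal microRNA miR-124, had 4.0 and 3.11 FPKM in cortex and were listed at 0 in muscle, at loci that also hold the names of their host genes. Also listed at 0 in muscle were Mir9-2 at 7.4, Mir137 at 4.08 and Mir7b, from an opposite-strand locus, at 4.39 FPKM in cortex. The locus of Mir9-2 also holds C130071C03Rik, and that of Mir137 also holds Gm26871. Mature sequences of these last 3 are shown to identify the brain microRNAs involved, taken from RefSeq on GRCm38.p6, with the seed (bases 2 to 8) in capitals. They lie at chr13:83738821-83738843, chr3:118433901-118433923 and chr17:56243017-56243040, all on the plus strand, and the seeds differ from one another.
miR-9-5p: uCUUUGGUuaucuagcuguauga
miR-137-3p: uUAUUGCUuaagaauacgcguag
miR-7b-5p: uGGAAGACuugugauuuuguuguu

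Cortex-high and shared genes were long. The median span of nuclear protein-coding genes was 46610 bp for 2117 cortex-high genes, 56445 bp for 109 shared genes, 21824 bp for 2332 muscle-high genes and 24530 bp for 8363 genes called in neither direction, and 33.5%, 34.9%, 11.9% and 12.9% of them exceeded 100000 bp. On annotated-strand loci alone the medians were 54304 bp for cortex-high, 56526.5 bp for shared and 22590.5 bp for muscle-high genes. For genes with at least 10 FPKM in either tissue they were 51992, 60959 and 22185.5 bp. Exonic length differed less, with medians of 4959 bp (cortex-high), 5102 bp (shared) and 3826.5 bp (muscle-high). On the X chromosome lay 5.76% of cortex-high, 4.59% of shared and 2.44% of muscle-high coding genes, against 3.38% of all compared.

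**Figure D5:**
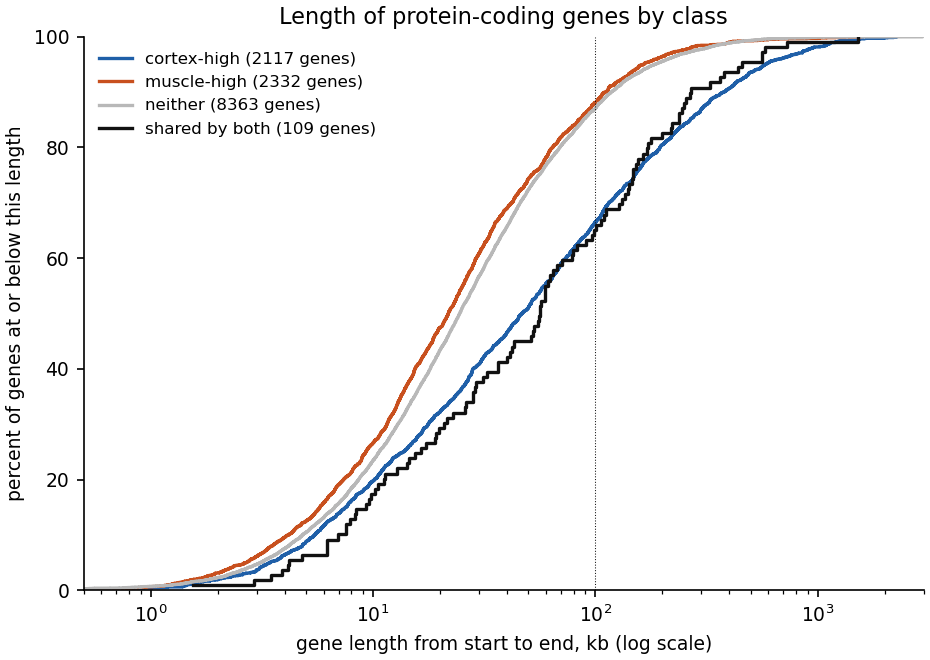
Lines give the percent of protein-coding genes at or below each length from annotated start to end (kb, log scale) for 2117 cortex-high, 2332 muscle-high, 109 shared genes and 8363 genes called in neither direction, with a dotted line at 100 kb. The cortex-high and shared lines lie to the right of the other 2 over most of the range, with medians of 46610 and 56445 bp.

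Promoter windows from RefSeq, 250 bases before to 50 bases after a gene's start on GRCm38.p6, were searched on both strands for TATAAA, for CAGCTG (an E-box bound by myogenic and neural bHLH factors) and for the MEF2 motif. A comparison of the classes by these motifs is void, because 61.1% of the coding genes compared had a single window and 77.5% had any. Of 22862 genes with a single window, 14.8% held TATAAA, 16.1% CAGCTG and 0.538% the MEF2 motif. Among the 7824 coding genes compared that had a single window, these shares were 7.57%, 15.2% and 0.511%. A pair of creatine kinase genes of opposite tissue bias (Ckm and Ckb), a muscle-high gene (Ppp1r3a, the muscle glycogen-targeting phosphatase subunit, 0.00314 and 69.2 FPKM, opposite-strand locus) and a shared gene (Clcn1) are shown, Ppp1r3a and Clcn1 chosen after their motifs were seen. Capitals mark matches. The Ckm window is chr7:19410844-19411143 on the plus strand, with CAGCTG at bases 2 to 7. It is placed by the RefSeq start, which lies inside the GENCODE span given above, because that span begins with a transcript that starts further upstream. The Ckb window is chr12:111672289-111672588 on the minus strand, with a MEF2 motif at bases 222 to 231 that contains TATAAA. The Ppp1r3a window is chr6:14755225-14755524 on the minus strand, with TATAAA at bases 102 to 107, a MEF2 motif at bases 151 to 160 that contains TATAAA on the other strand, and CAGCTG at bases 237 to 242. The Clcn1 window is chr6:42286435-42286734 on the plus strand, with a MEF2 motif at bases 200 to 209 that contains TATAAA. These matches are letters in a window, and binding was not measured.
Ckm: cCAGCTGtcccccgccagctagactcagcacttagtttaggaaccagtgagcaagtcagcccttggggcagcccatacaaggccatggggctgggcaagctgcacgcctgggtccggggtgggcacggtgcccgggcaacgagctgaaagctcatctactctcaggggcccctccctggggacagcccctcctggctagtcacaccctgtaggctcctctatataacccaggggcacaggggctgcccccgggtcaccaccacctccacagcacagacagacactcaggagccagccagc
Ckb: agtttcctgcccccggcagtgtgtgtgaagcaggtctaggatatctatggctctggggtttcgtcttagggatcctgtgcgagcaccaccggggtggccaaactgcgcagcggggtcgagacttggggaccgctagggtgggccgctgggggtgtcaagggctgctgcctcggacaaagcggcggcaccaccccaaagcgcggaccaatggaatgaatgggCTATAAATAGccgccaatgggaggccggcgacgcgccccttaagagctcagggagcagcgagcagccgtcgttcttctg
Ppp1r3a: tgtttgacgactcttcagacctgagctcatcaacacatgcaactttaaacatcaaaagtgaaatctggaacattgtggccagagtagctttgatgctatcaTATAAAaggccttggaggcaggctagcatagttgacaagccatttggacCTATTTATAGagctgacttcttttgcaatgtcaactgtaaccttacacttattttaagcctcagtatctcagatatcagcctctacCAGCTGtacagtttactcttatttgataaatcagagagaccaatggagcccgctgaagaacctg
Clcn1: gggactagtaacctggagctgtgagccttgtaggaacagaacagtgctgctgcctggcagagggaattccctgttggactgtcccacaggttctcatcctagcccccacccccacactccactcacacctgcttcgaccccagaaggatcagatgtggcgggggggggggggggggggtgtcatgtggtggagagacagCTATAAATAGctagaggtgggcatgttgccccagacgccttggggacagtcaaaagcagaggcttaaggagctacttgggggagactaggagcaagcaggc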

How the data were processed

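Total RNA of 7 tissues was depleted of ribosomal RNA and made into directional libraries, with 1 library per tissue, read as 2 x 101 bases. Per the labels and the study's methods, the authors removed ribosomal reads with Bowtie2 2.2.9, aligned with STAR 2.6.0c to mm10 (GRCm38) with Ensembl release 90, and assembled and quantified with Cufflinks 2.2.1. The deposited values are FPKM per locus, computed by the authors with Cuffdiff, whose scaling between libraries is not given in the sources used here. The table's own fold changes, test statistics, p-values, q-values and significance flags hold the authors' comparisons and were not used. Depth is not given, so no counting interval was computed.

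The 94339 loci were split at commas into gene names (65001 named loci). Loci with FAIL (151) were dropped, zeros in LOWDATA rows (83 loci) were treated as missing (27 names in cortex or muscle), and the locus with the highest FPKM stood for a name. Names were matched to GENCODE M21 (GRCm38), 92.0% with a gene. The strand of a locus was inferred from the order of loci in the table, and names with 1 locus lay on the annotated strand in 99.9% of cases. The table's coordinates are those of locus bundles. They served to match names to GENCODE genes by overlap and to give chromosome and strand, and gene lengths were taken from GENCODE. The log2 ratio of FPKM + 0.1, a 4-fold threshold and a 1 FPKM minimum gave the calls. The code was checked on a small made-up table and on 200 real genes whose cortex value was raised beyond the threshold. All 200 were then called cortex-high, which the rule fixes in advance, so this checks the code and not the calls.

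Named genes are Snap25 and Ckm, the highest members of each list in each tissue, members called against their list, isozymes of opposite call, the 10 largest ratios in each direction, the 20 shared genes with the largest margin, the 10 highest, and the 3 on each side of the threshold. Members and lists were chosen with earlier results of these data known. Alternatives were 2 pseudocounts, 2 rescalings, other folds, other FPKM minimums, other handling of loci and flags, and leaving BAT out. Loci on the annotated strand only and protein-coding genes only were added after seeing the data. Acta1, Tubb3, Jph3, Cdh15, Cox4i1 and Col1a2 were not analysed here, and some genes that the naming rule selects are not reported here. Python 3.11.15, pandas 2.3.3, numpy 2.4.6 and matplotlib 3.10.9 were used.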

Additional observations from a re-analysis of the deposited data

How the results depend on the processing

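No paired analysis was possible because each tissue has 1 library and no comparison comes from a test. Calls follow the pseudocount, the scaling and the handling of loci. Cortex-high genes numbered 2677, and 1612 with a pseudocount of 1 FPKM, 5674 with equal sums, 940 with names of 1 locus and loci of 1 name, and 1575 with a minimum of 5 FPKM. Muscle-high genes numbered 2933, and 1896, 1321 and 1148 under the first 3 of these, 5655 at 2-fold and 1490 at 8-fold. Shared genes numbered 137, and 215 with a pseudocount of 0.01 FPKM, 62 with 1 FPKM, 214 with equal sums, 375 at 2-fold, 48 at 8-fold and 41 with 1 locus and 1 name. With the median-ratio rescaling there were 135 shared genes, 126 of them in the main set, with summed loci 134 (125), with 1 FPKM required in both tissues 116, and without BAT 182. The causes were not tested beyond what each setting does by construction. Of 127 named ratios, 120 moved with equal sums, 66 with a pseudocount of 1 FPKM and 40 with 0.01 FPKM. One library per tissue and unknown depth limit every value.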
